A study of Mus musculus with 2 samples.

Results

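The genes for the syndecans and glypicans, the main families of cell-surface heparan sulphate proteoglycans, were examined in cultured mouse tumour cells described as pericytes. The 10 members were taken by symbol (Sdc1 to Sdc4 and Gpc1 to Gpc6), and all 10 had a row among the 52636 gene IDs of the expression table. The cells were described as primary pericytes, mural cells of small vessels, from tumours of C57BL/6 mice. After flow sorting they were cultured on gelatin, to passages 10 to 12. RNA-seq gave 1 library for the Cd248 null genotype and 1 for the Cd248 heterozygous genotype, so both groups carried a mutated Cd248 allele and wild-type cells were not analysed here. Not given in the sources used here are the tumour model, the sorting markers, the mutated part of Cd248 and the number of animals behind each culture.

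Syndecans are transmembrane proteins and glypicans are held in the outer membrane leaflet by a glycosylphosphatidylinositol (GPI) anchor. Both carry long heparan sulphate chains whose sulphate pattern binds growth factors, Wnt and Hedgehog proteins, chemokines and matrix proteins, so they act as co-receptors and as stores of ligand at the cell surface. In vessel walls, heparan sulphate helps to hold platelet-derived growth factor near the endothelium, where pericytes are recruited. Cd248 (endosialin), the targeted gene, encodes a C-type lectin-like transmembrane protein of stromal cells.

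Values are FPKM, fragment counts scaled for transcript length and for library size, as deposited by the authors, so levels can be set side by side between genes. With 1 library per genotype there was no spread between cultures and no test. The 95% intervals given here cover counting error only. They rest on reads estimated from the steps between low values and on the shortest coding transcript of each gene. Per kilobase, an FPKM of 1 was worth 19.8 reads for null cells and 24.0 for heterozygous cells. Use of the shortest transcript makes intervals wide where coding transcripts differ in length. Cd248, Sdc2, Sdc4, Gpc1 and Gpc4 have 1 coding transcript each, so theirs are not widened. Ratios are null over heterozygote on the log2 scale after adding 1 to each FPKM, and a gene was compared when its FPKM was 1 or more in either library. The columns carry codes rather than sample titles, and the code ending in N was read as null. Cd248 stood at 0.0592 in null cells and 20.98 in heterozygous cells, about 3.05 reads in null and 1311 in heterozygous cells. The ratio was 0.00282 with a counting interval of 0.000571 to 0.00812, and the log2 ratio was -4.38.

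The libraries also differed in cell markers, and this stands beside every difference below. Among all genes compared, 6.84% were at least 2-fold higher in null cells and 6.88% lower, the shares beside which the marker counts stand. Of 10 pericyte markers 6 were compared. Of these, 1 was at least 2-fold higher in null cells and 5 lay within 2-fold, and the summed FPKM over the list of 10 was 798 in null and 1393 in heterozygous cells. Pdgfrb, through which mural cells respond to platelet-derived growth factor, was the one past 2-fold, with 57.3 in null cells and 8.25 in heterozygous cells. By sign, the 6 were split, with 3 higher and 3 lower in null cells and a median log2 ratio of 0.23. Des and Notch3 were the others higher in null cells, with log2 ratios of 0.81 and 0.92. Acta2, the smooth muscle actin gene, was lower and made up most of both sums, with 726 in null and 1367 in heterozygous cells. Cspg4 had 2.59 in null and 5.02 in heterozygous cells, and Mcam had 8.68 in null and 11.2 in heterozygous cells. The pericyte gene Rgs5 was low, at 0.377 in null and 0.0173 in heterozygous cells, and Abcc9 was listed at 0 in both. Kcnj8 and Anpep were under an FPKM of 1 in both. The name pericyte is the submitters', and the markers of that type were mixed in both libraries. Of 7 mesothelial markers 6 were compared and all 6 were at least 2-fold lower in null cells. Their summed FPKM over the list of 7 was 17.1 in null cells and 1062 in heterozygous cells. Upk3b, Wt1, Krt18 and Lrrn4 reached an FPKM of 1 in heterozygous cells alone, so they could hardly have been counted as higher in null cells. Msln and Krt19 reached it in both libraries. Over 6 endothelial markers the sum was 0.560 in null and 0.949 in heterozygous cells, and over 5 epithelial markers 0.0180 in null and 1.16 in heterozygous cells. The leukocyte list summed to 124 in null and 0.129 in heterozygous cells, of which Cd53 made up 124 in null cells, while the pan-leukocyte gene Ptprc was listed at 0 there and had 0.0574 in heterozygous cells. Of 7 fibroblast markers 6 were compared, with 2 at least 2-fold higher and 3 lower in null cells. The 4 Schwann cell markers summed to 1.61 in null and 0.859 in heterozygous cells. The X-inactivation RNA Xist had 74.2 in null cells and 0.0133 in heterozygous cells. The Y-linked genes Ddx3y and Eif2s3y were listed at 0 in null cells and had 5.91 and 14.3 in heterozygous cells. These are the values of female null cells and male heterozygous cells, so sex cannot be told apart from genotype here. The part of these differences in the results below was not tested, and with bulk RNA fewer cells of a type and less RNA per cell cannot be told apart.

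Most syndecan and glypican genes were expressed in both cultures, with levels and an order that differed between them. Of the 10 genes 8 were compared. Sdc1, Sdc3 and Gpc1 were at least 2-fold higher in null cells, Gpc3 was lower, and Sdc2, Sdc4, Gpc4 and Gpc6 lay within 2-fold. Gpc2 and Gpc5 stayed under an FPKM of 1 in both. Over all 12773 genes tested the same way, 6.84% passed the 2-fold mark upward and 6.88% downward, so 3 of 8 members higher is a larger share than the background, while the lower side is a single gene, Gpc3, which passed the filter through heterozygous cells alone. At a 1.5-fold mark, chosen after seeing the data, the counts of members stayed at 3 and 1, against 15.8% and 12.9% of all genes. The median log2 ratio of the 8 members was 0.37, against 0.03 over all genes compared.

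**Figure D1:**
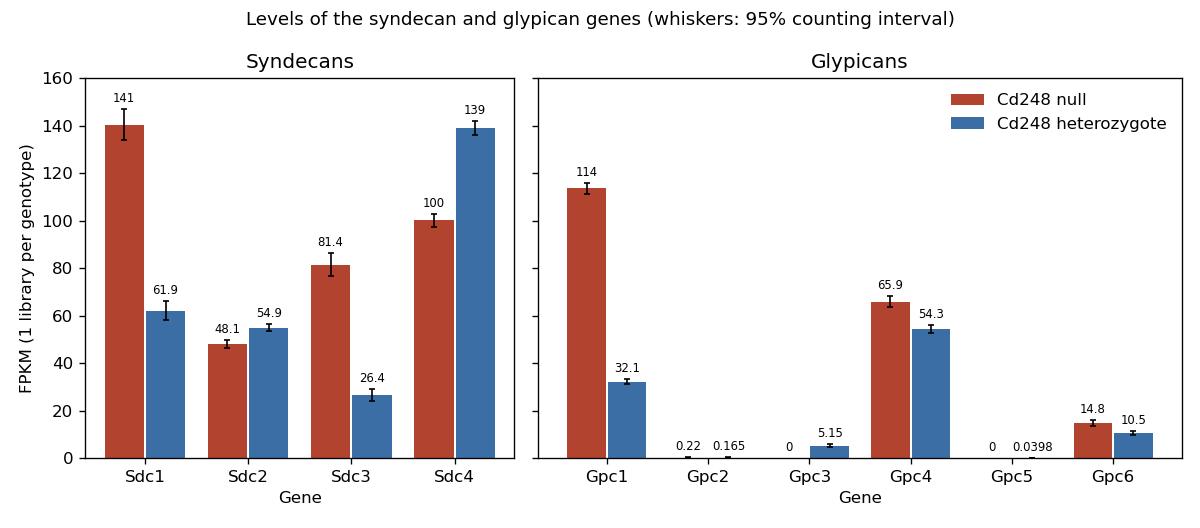
FPKM of each syndecan gene (left panel) and glypican gene (right panel) in the Cd248 null library (red) and the Cd248 heterozygote library (blue), 1 library each, with whiskers for the 95% counting interval. Sdc1, Sdc3 and Gpc1 stood higher in null cells, at 141, 81.4 and 114, while Sdc4 led in heterozygous cells at 139.

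Among the syndecans, Sdc1, a syndecan of epithelia and plasma cells that also appears in stroma around tumours, had an FPKM of 141 in null cells (counting interval 134 to 147) and 61.9 in heterozygous cells (58.1 to 66.0). It was 2.27-fold higher in null cells, with a counting interval of 2.10 to 2.46 and a log2 ratio of 1.17. It was the most abundant of the 10 genes in null cells, above 93.2% of all genes compared. Sdc3, known mainly from the nervous system and muscle progenitors, had 81.4 in null cells (76.6 to 86.6) and 26.4 in heterozygous cells (23.9 to 29.1). The null value was 3.08-fold higher, with an interval of 2.75 to 3.47 and a log2 ratio of 1.59. On the strand opposite to Sdc3, exons of 2 annotated genes overlap it, and both were listed at 0 throughout.

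The promoter windows of these 2 syndecan genes are shown because they were the syndecans past the 2-fold mark. Each runs from 250 bases before to 50 after the start, 5′ to 3′ on the gene's strand, from RefSeq on GRCm38.p6, and capitals mark GC boxes, the letters GGGCGG or, on the other strand, CCGCCC. The Sdc1 window is chr12:8771146-8771445 on the plus strand and the Sdc3 window is chr4:130792287-130792586 on the plus strand.
Sdc1: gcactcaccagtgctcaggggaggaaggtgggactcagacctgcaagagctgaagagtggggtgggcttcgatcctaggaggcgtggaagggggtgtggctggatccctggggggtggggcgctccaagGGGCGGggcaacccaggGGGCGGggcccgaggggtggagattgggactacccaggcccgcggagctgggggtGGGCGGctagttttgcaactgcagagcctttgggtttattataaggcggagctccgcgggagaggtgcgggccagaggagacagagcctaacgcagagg
Sdc3: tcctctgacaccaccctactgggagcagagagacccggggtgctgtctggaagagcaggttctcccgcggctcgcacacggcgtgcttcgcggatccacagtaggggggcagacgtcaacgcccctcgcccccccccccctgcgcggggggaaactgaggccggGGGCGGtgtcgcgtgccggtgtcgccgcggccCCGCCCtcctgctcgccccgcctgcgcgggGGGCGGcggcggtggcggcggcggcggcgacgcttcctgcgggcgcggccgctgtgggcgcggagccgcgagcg
Both windows held 3 GC boxes. The Sdc3 window had 44 CpG dinucleotides and a GC content of 77.7%, more CpG than 97.8% of the 32851 windows of the table, whereas the Sdc1 window had 14 CpG and 66.3% GC. Of all windows, 35.7% held at least 1 GC box. Of the members, 7 had a window in the table and all 7 held one. The letters TATAA, or TTATA on the other strand, were in the Sdc1 window and not in the Sdc3 window, and were in 24.9% of all windows. A match in letters shows no binding.

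Sdc4 and Sdc2 differed less. Sdc4, the syndecan of focal adhesions that binds and activates protein kinase C alpha, had 100.1 in null cells (97.4 to 103) and 139 in heterozygous cells (136 to 142). Its fold of null over heterozygote was 0.721, with an interval of 0.696 to 0.747, and its log2 ratio was -0.47, within the 2-fold mark. Sdc2, a syndecan of mesenchymal cells, had 48.1 in null cells (46.5 to 49.8) and 54.9 in heterozygous cells (53.4 to 56.5). The fold was 0.876, with an interval of 0.838 to 0.917, and the log2 ratio was -0.19. Counting error was thus smaller than each of these differences, and the spread between cultures is unknown.

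The syndecans are usually divided by sequence into a pair of subfamilies, Sdc1 with Sdc3 and Sdc2 with Sdc4, and the libraries differed along that line. This grouping was applied after the values were seen. Sdc1 and Sdc3 together summed to an FPKM of 222 in null cells and 88.3 in heterozygous cells, a fold of 2.51. Sdc2 and Sdc4 together summed to 148 in null and 194 in heterozygous cells, a fold of 0.765. All 4 syndecans together came to 370.2 in null cells and 282 in heterozygous cells, a fold of 1.31 and a log2 ratio of 0.39. Without Sdc1 the sums were 230 (null) and 220 (heterozygote) and the fold was 1.04.

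Gpc1 had the highest ratio of the 10 genes. It encodes glypican-1, a co-receptor for fibroblast growth factors that is also found in tumour stroma. Its FPKM was 114 in null cells (111 to 116) and 32.1 in heterozygous cells (31.0 to 33.3), a 3.54-fold higher level in null cells with an interval of 3.40 to 3.68 and a log2 ratio of 1.79. One gene on the opposite strand, Ankmy1, overlaps exons of Gpc1, and the counting is not stated to use strand. Ankmy1 was listed at 0.110 in null cells and 0.0452 in heterozygous cells.

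Gpc4 and Gpc6 were within 2-fold. Gpc4, which encodes a glypican of many mesenchymal and neural tissues, had 65.9 in null cells (63.7 to 68.2) and 54.3 in heterozygous cells (52.5 to 56.2), a fold of 1.21 with an interval of 1.16 to 1.27. Gpc6, the closest relative of Gpc4 and a gene of skeletal growth in humans, had 14.8 (13.5 to 16.2) and 10.5 (9.52 to 11.6), a fold of 1.41 with an interval of 1.23 to 1.61. Their log2 ratios were 0.27 for Gpc4 and 0.46 for Gpc6. All 3 of Gpc1, Gpc4 and Gpc6 were higher in null cells, but Gpc1 alone of them was past the 2-fold mark.

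Gpc3 showed the opposite pattern. It encodes an oncofetal glypican that restrains Hedgehog signalling and whose loss in humans causes an overgrowth syndrome. It was listed at 0 in null cells and had 5.15 in heterozygous cells, with a counting interval of 4.50 to 5.85 and an estimated 232 to 274 reads, depending on the transcript length. On the shortest coding transcript, 3 reads in null cells would have been an FPKM of 0.0807, the limit that a count of 0 allows. The log2 ratio was -2.62, or -5.71 with a pseudocount of 0.1 and -1.02 with one of 5, close to the 2-fold mark, and, against a listed 0, no fold is given. In the whole table, 28 genes that reached an FPKM of 5 in heterozygous cells were listed at 0 in null cells, and 2 genes showed the reverse. The 28 include Gpc3 itself, the Y-linked genes Ddx3y and Eif2s3y, and the mesothelial marker Lrrn4. None of 12 housekeeping genes was listed at 0. The lowest of them, Tbp, had 13.6 in null and 11.7 in heterozygous cells, so they say little about a 0 at the level of Gpc3.

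Gpc3 lies on the X chromosome next to Gpc4, and the RefSeq table of GRCm38.p6 has no other gene starting between them. The pair shares its neighbourhood but not its pattern, with Gpc4 at 65.9 in null cells and 54.3 in heterozygous cells. Of 408 X-linked genes compared, 3.43% were at least 2-fold higher in null cells and 9.8% lower. The libraries also differed in sex, by Xist and the Y-linked genes, and its part in X-linked values was not tested. The promoter windows of Gpc3 and Gpc4 are shown for that contrast between neighbours, with GC boxes in capitals as above. The Gpc3 window is chrX:52613925-52614224 and the Gpc4 window is chrX:52164874-52165173, both on the minus strand of GRCm38.p6 in RefSeq.
Gpc3: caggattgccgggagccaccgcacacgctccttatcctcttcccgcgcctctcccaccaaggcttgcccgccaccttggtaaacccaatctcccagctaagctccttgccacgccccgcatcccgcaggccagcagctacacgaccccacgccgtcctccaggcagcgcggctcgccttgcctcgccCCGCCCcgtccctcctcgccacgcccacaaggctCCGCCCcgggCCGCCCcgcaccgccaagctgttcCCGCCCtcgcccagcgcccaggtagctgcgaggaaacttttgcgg
Gpc4: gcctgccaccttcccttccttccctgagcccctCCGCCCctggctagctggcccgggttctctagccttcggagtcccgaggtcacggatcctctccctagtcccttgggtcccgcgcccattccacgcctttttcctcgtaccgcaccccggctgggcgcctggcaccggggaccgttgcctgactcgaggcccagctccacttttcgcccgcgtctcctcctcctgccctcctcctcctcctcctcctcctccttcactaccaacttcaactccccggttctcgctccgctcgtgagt
The Gpc3 window held 4 GC boxes, 30 CpG dinucleotides and 70.7% GC. The Gpc4 window held 1 GC box, 22 CpG dinucleotides and 66.7% GC. Neither held the letters TATAA or TTATA. Both windows were rich in CpG, with more than 88.3% (Gpc3) and 76.9% (Gpc4) of all windows, and DNA methylation was not analysed here.

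The remaining glypicans were barely detected. Gpc2, a glypican of the developing nervous system, had an FPKM of 0.220 in null cells and 0.165 in heterozygous cells, about 10.9 reads in null and 9.95 in heterozygous cells. The ratio of 1.33 had a counting interval of 0.514 to 3.50, so no difference was detectable at this depth. Gpc5 was listed at 0 in null cells and at 0.0398 in heterozygous cells, an estimated 1.64 to 2.71 reads. Gpc5 neighbours Gpc6 on chromosome 14 with no protein-coding gene starting between them in RefSeq, and the pair differed in level in both libraries.

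**Figure D2:**
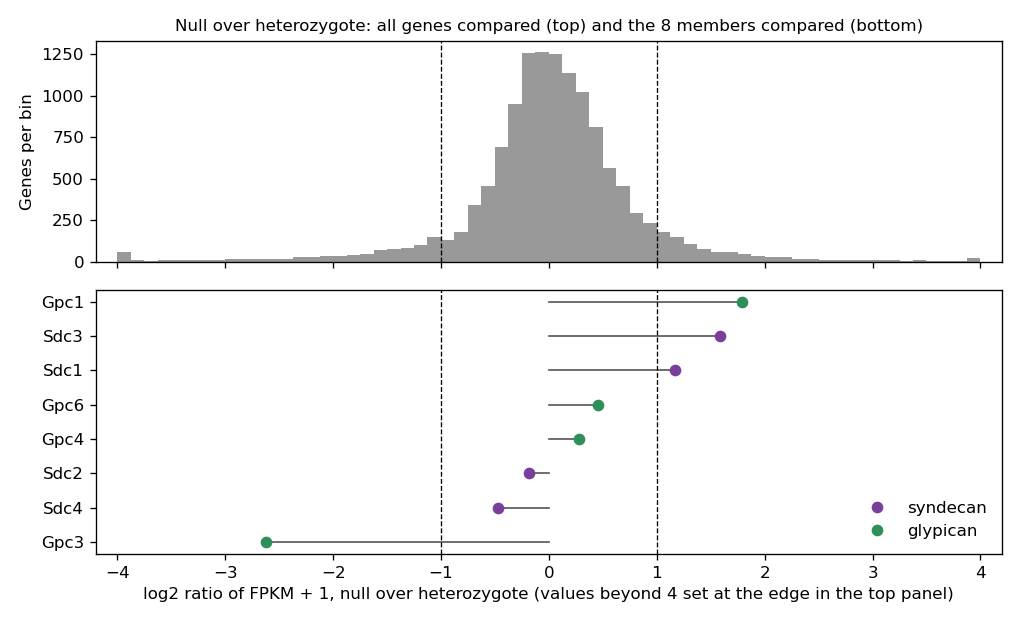
Log2 ratios of FPKM + 1 (null over heterozygote) for all 12773 genes compared, as a histogram (top), and for the 8 members compared, as points (bottom), with dashed lines at the 2-fold marks. Gpc1, Sdc3 and Sdc1 lie right of the upper mark at 1.79, 1.59 and 1.17, and Gpc3 lies left of the lower mark at -2.62.

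Glypicans summed to an FPKM of 195 in null cells and 102 in heterozygous cells, a fold of 1.90 and a log2 ratio of 0.92. Without Gpc1 the sums were 80.9 (null) and 70.2 (heterozygote) and the fold was 1.15. The 10 genes together made up 0.0806% of the summed FPKM of the null library and 0.0517% of that of the heterozygote library.

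The order of the members differed between the libraries. From the top, the null library had Sdc1, Gpc1, Sdc4, Sdc3, Gpc4, Sdc2, Gpc6 and Gpc2, with Gpc3 and Gpc5 at 0. The heterozygote library had Sdc4, Sdc1, Sdc2, Gpc4, Gpc1, Sdc3, Gpc6, Gpc3, Gpc2 and Gpc5. The counting intervals of neighbours in these orders overlapped for Sdc2 with Gpc4 and for Gpc2 with Gpc5, both in heterozygous cells, and for no other neighbours above 0. As a level ratio, Sdc1 to Sdc4 was 1.40 in null cells and 0.446 in heterozygous cells, and Gpc1 to Gpc4 was 1.72 in null and 0.591 in heterozygous cells. Such ratios within a library do not depend on the total used to scale it. As shares of the summed FPKM of the 10 genes, Sdc1 held 24.9% in null cells and 16.1% in heterozygous cells. Gpc1 held 20.1% in null and 8.35% in heterozygous cells. Sdc4 held 17.7% in null and 36.1% in heterozygous cells.

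**Figure D3:**
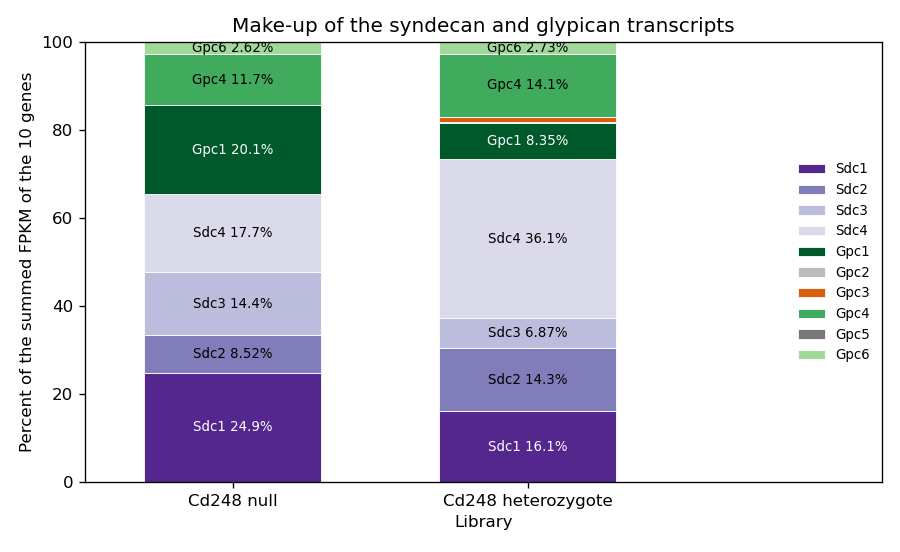
Share of each gene in the summed FPKM of the 10 genes (percent), for the Cd248 null library (left bar) and the Cd248 heterozygote library (right bar). Sdc4 takes 17.7% of the null bar and 36.1% of the heterozygote bar, and Gpc1 takes 20.1% in null and 8.35% in heterozygous cells.

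The heparan sulphate chains carried by these proteins are made in the Golgi, where a sugar linker is built on the core protein, polymerised and then sulphated. Of 12 genes for the linker and the chain 10 were compared, with 2 at least 2-fold higher in null cells and none lower. Over all genes compared, 6.84% were higher and 6.88% lower, the shares against which this and the later lists are read. In the 9 lists together 79 genes were compared, 13 of them higher and 7 lower. With so few genes per list, a count of 1 cannot be told from these shares, and no list was tested. Pxylp1, the phosphatase that clears the linker xylose for chain growth, had 23.4 in null cells and 9.14 in heterozygous cells. Ext1, a subunit of the chain polymerase, had 81.4 in null and 39.2 in heterozygous cells, a fold of 2.08, while its partner Ext2, the most abundant gene of the list, had 149.6 in null and 146 in heterozygous cells. The list median of the log2 ratio was 0.39, against 0.03 over all genes compared.

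Of 18 genes that set the sulphate pattern 11 were compared, 3 at least 2-fold higher and 2 lower in null cells, and the list median was -0.01, with a mean of 0.08 on the other side of 0. The 3 higher genes encode Golgi enzymes, as do the genes of this list that lay within 2-fold. Ndst1, which removes acetyl groups and adds N-sulphate, had 27.1 in null cells and 12.2 in heterozygous cells. Glce, the epimerase that turns glucuronic into iduronic acid, had 26.3 in null and 12.1 in heterozygous cells, and Hs6st1, a 6-O-sulphotransferase, had 27.4 in null and 13.1 in heterozygous cells. Among those within 2-fold, Ndst2 had 17.7 in null and 21.5 in heterozygous cells, Hs2st1 had 46.3 in null and 41.8 in heterozygous cells, and Hs6st2 had 57.8 in null and 58.2 in heterozygous cells. Hs3st1 had 3.59 in null and 3.79 in heterozygous cells, Ndst3 had 0.658 in null and 1.56 in heterozygous cells, and Hs3st3b1 had 1.33 in null and 0.195 in heterozygous cells. With a pseudocount of 0.1, Ndst3 passed the mark downward and Hs3st3b1 upward. The 2 lower genes encode the secreted sulphatases that take 6-O-sulphate off finished chains. Sulf2, the most abundant gene of the list, had 56.0 in null and 139.9 in heterozygous cells, a fold of 0.400, and Sulf1 had 13.03 in null and 29.0 in heterozygous cells, a fold of 0.450. Of these, Ext1, Ndst1, Glce, Hs6st1 and Sulf1 were within the 2-fold mark when a pseudocount of 5 replaced 1, and Hs6st1 also with upper quartile scaling.

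Of 8 genes for sugar and sulphate donors, all compared, 1 was lower by at least 2-fold. This was Papss2, a synthase of the sulphate donor, with 3.91 in null cells and 9.04 in heterozygous cells, and it came within the mark with a pseudocount of 5 or with columns scaled to an equal sum. Ugdh, which makes UDP-glucuronic acid and was the most abundant of the list, had 95.3 in null and 74.4 in heterozygous cells. The list median was 0.002 and the mean -0.04, which differ in sign. None of the 9 lysosomal and extracellular degradation genes compared was past 2-fold with the pseudocount of 1, and the list median was 0.09. Arsg, a lysosomal sulphatase gene, had 2.12 in null and 0.591 in heterozygous cells, and passed the mark upward with a pseudocount of 0.1 or with columns scaled to an equal sum. Hpse, which encodes heparanase, had 0.378 in null and 1.45 in heterozygous cells, and passed it downward with the pseudocount of 0.1. Within 2-fold but past 1.5-fold were also Slc26a2, a sulphate transporter gene, with 5.77 in null and 2.98 in heterozygous cells, Idua, with 9.69 in null and 5.93 in heterozygous cells, and Sgsh, with 5.46 in null and 10.2 in heterozygous cells.

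Ectodomains of syndecans are shed by metalloproteases and glypican cores are cut by furin-type convertases. Of 11 genes on the list for shedding, anchor release and core processing 7 were compared, with 1 higher and 1 lower by at least 2-fold. The gelatinase gene Mmp2 had 140 in null cells and 42.0 in heterozygous cells. Pcsk5, a convertase gene, had 0.0649 in null and 5.63 in heterozygous cells, and passed the filter through heterozygous cells alone. The membrane protease gene Mmp14 was the most abundant, at 574 in null and 443 in heterozygous cells. Notum, a secreted deacylase of Wnt proteins that was also described as releasing glypicans, was below an FPKM of 1, listed at 0 in null cells and at 0.627 in heterozygous cells. The list median was 0.36 and the mean -0.10, which differ in sign.

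Syndecan tails bind cytoplasmic adaptors. Of 10 such genes, all compared, 1 was higher and 1 lower by at least 2-fold, with a list median of -0.09. Tiam1, an exchange factor for Rac, had 7.48 in null cells and 1.98 in heterozygous cells, and it was within the mark with a pseudocount of 5. Ezr, which encodes ezrin, a linker of membrane proteins to actin that is abundant in epithelia and mesothelium, had 54.0 in null and 278 in heterozygous cells, a fold of 0.194. Sdcbp, which encodes the PDZ adaptor syntenin, had 105 in null and 146 in heterozygous cells, and the actin regulator gene Cttn, the most abundant of the list, had 392 in null and 393 in heterozygous cells (log2 ratio -0.002).

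Of 10 other genes whose products can carry heparan sulphate 7 were compared, with 2 higher, 1 lower and a median of -0.15. The co-receptor gene Nrp1 had 26.9 in null cells and 9.19 in heterozygous cells. Tgfbr3, which encodes the TGF-beta co-receptor betaglycan, had 54.1 in null and 23.3 in heterozygous cells. Spock2, a testican gene, had 0.175 in null and 4.61 in heterozygous cells, and passed the filter through heterozygous cells alone. It was within the mark with a pseudocount of 5. The basement membrane proteoglycan gene Hspg2 (perlecan) had 91.1 in null and 101 in heterozygous cells, and Cd44, the most abundant of the list, had 105 in null and 115 in heterozygous cells.

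**Figure D4:**
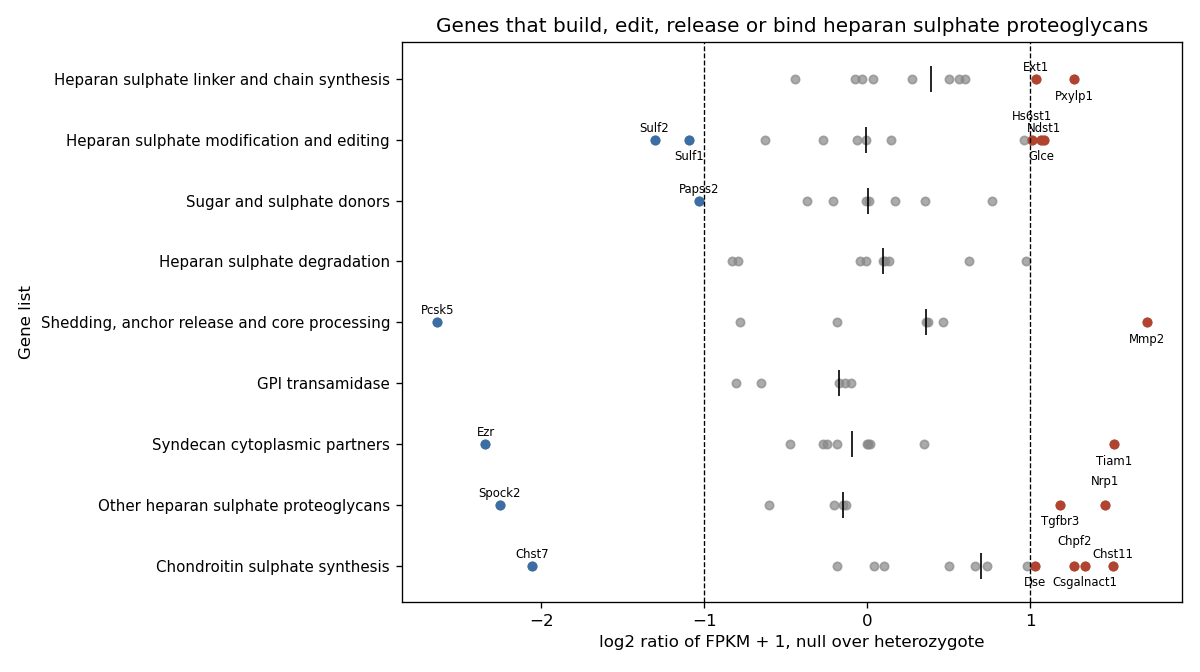
Log2 ratios of FPKM + 1 (null over heterozygote) for the genes that passed the FPKM filter, in 9 lists (rows), each point 1 gene, with list medians as vertical ticks and dashed lines at the 2-fold marks. Named genes are past a mark, red where higher and blue where lower in null cells. Ndst1, Glce and Hs6st1 lie just right of the upper mark and Sulf1 and Sulf2 left of the lower one.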

How the data were processed

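The submitters' processing notes name Bowtie2 (2.2.3) and the build mm8. Not given in the sources used here are the counting tool, the annotation and the denominator of FPKM. The deposited file was 1 table of the authors' FPKM values, 1 column per library. Libraries were made with a TruSeq kit, per the labels' protocols.

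Gene IDs were matched to GENCODE M21 (GRCm38) for names and transcript lengths, which gave symbols for 52489 of 52636 IDs. Each symbol kept its row with the highest mean FPKM, and no member had several rows. For genes with 1 transcript, 98.6% (null) and 98.5% (heterozygote) of values under 10 reads were whole reads within 0.02, and 93.7% (null) and 94.2% (heterozygous) of those of 10 to 1000 reads. The totals behind these steps were 19785844 reads for null and 23982694.5 for heterozygous cells. Counting intervals are exact Poisson for levels and Clopper-Pearson for ratios, and cover counting error only, as PCR copies of a molecule were not marked. No test was possible with 1 library per genotype. The depth estimate and the 2-fold rule were tested on simulated data that held counting error only. That test says nothing about the spread between cultures.

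The members, lists and rules were chosen with earlier results of these data known. All members were named, as were, in each list, the genes past 2-fold and the most abundant gene. Others named were chosen after their values were seen. Alternatives changed the pseudocount (0.1 and 5), the FPKM minimum (none and 5), the scaling, and the handling of repeated symbols. Python 3.11.15, numpy 2.4.6, pandas 2.3.3, scipy 1.17.1 and matplotlib 3.10.9 were used. A gene that the naming rule selects is not reported here.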

Additional observations from a re-analysis of the deposited data

How the results depend on the processing

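No paired analysis was possible because there was 1 library per genotype, and for the same reason no replicate could be left out. The counts of members past 2-fold, 3 higher and 1 lower, were the same under all 7 alternatives and at the 1.5-fold mark. The 70 log2 values of the 10 members under these alternatives all had the sign of the reported one. Only the scalings could have changed a sign. A pseudocount added to both libraries, the FPKM minimum and the handling of repeated symbols cannot change the sign of a member. The log2 ratio of Cd248 was -7.05 with a pseudocount of 0.1 and -2.36 with 5, as a low value makes it depend on the pseudocount. After scaling both columns to 1 sum, the log2 ratio of summed syndecans was 0.48 and that of summed glypicans 1.01. Without Sdc1 the first was 0.060 and without Gpc1 the second was 0.20, both added after seeing the data. With a pseudocount of 5, 10 genes of the 9 lists were past 2-fold in place of 20, and 400 and 369 of all genes were higher and lower in place of 874 and 879. With one of 0.1, 25 list genes passed, the 20 among them, and 1306 of all genes were higher and 1090 lower. The log2 ratio of Gpc3 was -5.71 with a pseudocount of 0.1 and -1.02 with 5. Depth limits Gpc2 and Gpc5, which had few reads.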

Other observations

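Chondroitin sulphate, which Sdc1 and Sdc3 can also carry, is built on the same linker as heparan sulphate. Of 15 genes for its synthesis 12 were compared, with 4 at least 2-fold higher and 1 lower in null cells and a median log2 ratio of 0.70, against 0.03 over all genes compared. Chst11, a 4-O-sulphotransferase, had an FPKM of 14.6 in null cells and 4.48 in heterozygous cells. Csgalnact1, which starts the chain, had 8.69 in null and 2.85 in heterozygous cells, and Chpf2, a chain-polymerising factor, had 62.1 in null and 25.2 in heterozygous cells. Dse, the epimerase that makes dermatan sulphate, had 111 in null and 54.1 in heterozygous cells, a fold of 2.06, and fell under the 2-fold mark with upper quartile scaling or a pseudocount of 5, as Csgalnact1 did with the pseudocount. Chst7, a 6-O-sulphotransferase, had 1.44 in null and 9.17 in heterozygous cells. Chst15 lay within 2-fold, with 4.30 in null and 1.69 in heterozygous cells. It passed the mark upward with a pseudocount of 0.1 or with columns scaled to an equal sum. Chpf, the most abundant gene of the list, had 155 in null and 98.0 in heterozygous cells.

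The 5 genes of the GPI transamidase, which attaches the anchor that glypicans need, all had lower values in null cells and none was past 2-fold. Of all 12773 genes compared, 6143 had lower values in null cells. Gpaa1, the most abundant, had 74.8 in null cells and 80.3 in heterozygous cells, and Pigt had 24.7 in null and 44.0 in heterozygous cells. The median log2 ratio was -0.17.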
